A study of Mus musculus with 24 samples.

Results

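TRBV13-2 and TRBV13-3 are variable (V) segments of the mouse T cell receptor β chain. They are better known from antibody staining as Vβ8.2 and Vβ8.1, with TRBV13-1 (Vβ8.3) as the remaining member of the family. Their sequences were taken from the TCRβ tables of all 24 tumors as those called to either segment, without a stop mark and with a count of at least 2. A clonotype was a CDR3 amino acid sequence with its V and J segment. TRBV13-2 had 6021 distinct clonotypes and 1349935 counts, which was 18.1% of the 7463100 retained TCRβ counts. TRBV13-3 had 3490 distinct clonotypes and 304068 counts, or 4.07%. All 25 V segments listed together held 47705 distinct clonotypes.

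The tumors were grown from CT26.CL25 cells, a clone of the CT26 mouse colon carcinoma line, under the skin of both flanks of female BALB/c mice aged 7 to 9 weeks. Each of 12 mice gave 2 tumors, and RNA of the whole tumor was used for 1 TCRβ library per tumor. In the time-matched group (mice 6, 12 and 14, untreated) both tumors were taken on day 13. The time-separated group was mice 4, 17 and 19, given no decitabine and called untreated or without drug below. Their first tumor was removed by surgery and the other was taken 11 days later. Anaesthesia and the analgesics carprofen and buprenorphine were given at surgery, and none is described for the time-matched mice. The 2 tumors were taken before and after day 13. Surgery, analgesics and the day of harvest therefore cannot be told apart in comparisons of these groups. The DAC groups followed the same schedule with decitabine, a DNA methylation inhibitor, injected into the peritoneum on 5 consecutive days from day 3 after surgery at 0.5 mg/kg (mice 3, 11 and 20) or 2 mg/kg (mice 7, 10 and 16), and the second tumor was taken 4 days after the last dose. In each DAC mouse 1 of the 2 tumors was thus removed before the first dose and never exposed. In the labels a mouse's tumors are called 1 and 2, with neither the side nor the order of removal, so no value below has a direction in time. Libraries held between 63291 and 887567 retained counts, and those of the time-matched mice (375898 to 610800) were all above the median of 206448. In RNA from whole tumors, fewer cells of a clone and less receptor RNA per cell cannot be told apart.

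A TCRβ chain is made by joining 1 V, 1 D and 1 J segment in a developing T cell, with bases removed from and added to the segment ends. The CDR3 loop spans this junction, so that its first residues come from the V segment, its last from the J segment and those in between largely from D and added bases. T cells of one clone carry the same junction, and a clone that divides raises the count of its sequence. In mice, TRBV13 segments are used by a large part of conventional T cells, and TRBV13-2 is also prominent among natural killer T cells. In the mouse locus (RefSeq annotation of GRCm38.p6) Trbv13-2 lies between Trbv12-2 and Trbv12-3, and Trbv13-3 follows Trbv12-3.

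The sequences that the results below turn on are the junctions of the largest clones. They are shown from the conserved cysteine codon to the last codon of the CDR3, 5′ to 3′, with capitals for the bases that matched neither the stretch shared by most CDR3s of the V segment nor the one of the J segment.
Stretch shared by most TRBV13-2 CDR3s: tgtgccagcggtga
Stretch shared by most TRBV13-3 CDR3s: tgtgccagcagtg
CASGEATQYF, TRBV13-2 with TRBJ2-5, largest in mouse 16: tgtgccagcggtgaGGCcacccagtacttt
TRBV13-2 with TRBJ2-5 and 14 residues, largest in mouse 12: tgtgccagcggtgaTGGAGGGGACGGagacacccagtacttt
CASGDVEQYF, TRBV13-2 with TRBJ2-7, largest in mouse 7: tgtgccagcggtgaTGTtgaacagtacttc
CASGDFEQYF, TRBV13-2 with TRBJ2-7, largest in mouse 19: tgtgccagcggtgaTTTtgaacagtacttc
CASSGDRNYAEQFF, TRBV13-3 with TRBJ2-1, largest in mouse 19: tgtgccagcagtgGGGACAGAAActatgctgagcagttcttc
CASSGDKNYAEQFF, TRBV13-3 with TRBJ2-1, largest in mouse 11: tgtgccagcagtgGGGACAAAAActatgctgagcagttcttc
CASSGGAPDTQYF, TRBV13-3 with TRBJ2-5, largest in mouse 4: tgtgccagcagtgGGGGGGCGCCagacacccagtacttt

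The clones of mice 7 and 19 that used TRBV13-2 differed at 1 base and 1 residue. The TRBV13-3 clones of mice 19 and 11 also differed at 1 base and 1 residue. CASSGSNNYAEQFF, the largest TRBV13-3 clone of mouse 16, had the same J segment and the same length of 14 residues and differed from them at 2 residues each, over 6 and 5 bases.

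The start of the CDR3 was set beside the V calls. It is not an independent check of them, since the stretches were taken from the CDR3s called to each segment. The TRBV13-2 stretch encodes CASG, and its last bases begin a codon for aspartate or glutamate, whichever base follows. Of TRBV13-2 clonotypes, 72.4% ± 10.1 (SD, n = 12 mice) started with CASG and 0.604% ± 0.404 with CASS. Of TRBV13-3 clonotypes, 65.1% ± 9.28 started with CASS and 1.81% ± 1.32 with CASG. A CASS start does not single out TRBV13-3, since 65.7% of TRBV13-1 and 74.1% of TRBV19 clonotypes had it too. Weighted by counts, 94.2% ± 5.82 of TRBV13-2 started with CASG. The same CDR3 nucleotide sequence with a larger count under another V segment was found for 38 of 10276 TRBV13-2 sequences and 21 of 4610 TRBV13-3 sequences, which held 0.0135% and 0.0375% of the segments' counts.

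Many clonotypes were small neighbours of large ones. Near copies, defined here after the data were seen as sequences that differed at 1 base from a sequence of the same library, V and J with at least 20 times the counts, made up 49.2% of TRBV13-2 and 35.4% of TRBV13-3 sequences, but 5.81% and 3.98% of their counts. For all V segments outside the TRBV13 pair the share of sequences was 48.7%. What they were was not tested, and shares of clonotypes are given with and without them where it matters.

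TRBV13-2 was the more used segment of the pair in nearly every mouse. Its share of clonotypes averaged 13.4% ± 4.66 (SD, n = 12 mice), the third of the 16 V segments with at least 10 clonotypes in every mouse, against 6.75% ± 1.98 for TRBV13-3, the sixth. With near copies left out these were 13.7% ± 3.35 and 7.87% ± 1.15. TRBV13-2 had the larger share of clonotypes in 12 of 12 mice, by 6.62 ± 4.97 percentage points (two-sided sign-flip permutation test, exact p = 0.000488, the lowest value 12 mice allow). Its share of counts was larger in 10 of 12 mice, by 9.90 ± 13.5 points (same test, exact p = 0.0146). The exceptions were mouse 20, where TRBV13-3 averaged 8.13% of counts and TRBV13-2 4.12%, and mouse 10, with 3.03% and 2.93%.

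The share of TRBV13-2 in the counts differed widely between mice of every group. Among the time-matched mice, mouse 6 had 2.35% and 2.67% in its tumors 1 and 2, mouse 12 had 26.8% and 31.7%, and mouse 14 had 10.8% and 9.41%. Among the time-separated mice without drug, mouse 4 had 7.09% and 14.1%, mouse 17 had 6.07% and 7.13%, and mouse 19 had 14.4% and 20.7%. At 0.5 mg/kg of decitabine, mouse 3 had 18.5% and 24.6%, mouse 11 had 8.21% and 18.2%, and mouse 20 had 5.49% and 2.75%. At 2 mg/kg, mouse 7 had 10.5% and 14.9%, mouse 10 had 3.70% and 2.16%, and mouse 16 had 46.5% and 47.5%. The groups overlapped throughout, and both tumors of mouse 16 lay above those of all other mice. The 95% exact (Clopper-Pearson) interval of the highest of these shares was 47.4% to 47.7%, which covers counting error only and was far narrower than the spread between mice.

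TRBV13-3 took a smaller share, and its lowest levels were mostly those of the time-matched mice. Mouse 6 had 2.16% and 2.09%, mouse 12 had 0.850% and 0.827%, and mouse 14 had 0.903% and 0.802%. In the time-separated mice without drug, mouse 4 had 5.48% and 13.9%, mouse 17 had 6.91% and 3.29%, and mouse 19 had 5.09% and 7.57%. At 0.5 mg/kg, mouse 3 had 3.30% and 0.940%, mouse 11 had 2.86% and 5.84%, and mouse 20 had 6.31% and 9.95%. At 2 mg/kg, mouse 7 had 13.3% and 8.37%, mouse 10 had 5.30% and 0.757%, and mouse 16 had 8.90% and 2.80%. The time-matched and the untreated time-separated tumors did not overlap, which held for 6.25% of the 16 V segments tested (TRBV13-3 alone). They did overlap with the largest TRBV13-3 clonotype of each tumor taken out of the segment and the library (0.705% to 1.41% and 1.00% to 5.94%). With all clonotypes, 2 tumors of the groups given decitabine (tumor 2 of mice 3 and 10) fell within the time-matched range or below it.

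**Figure D1:**
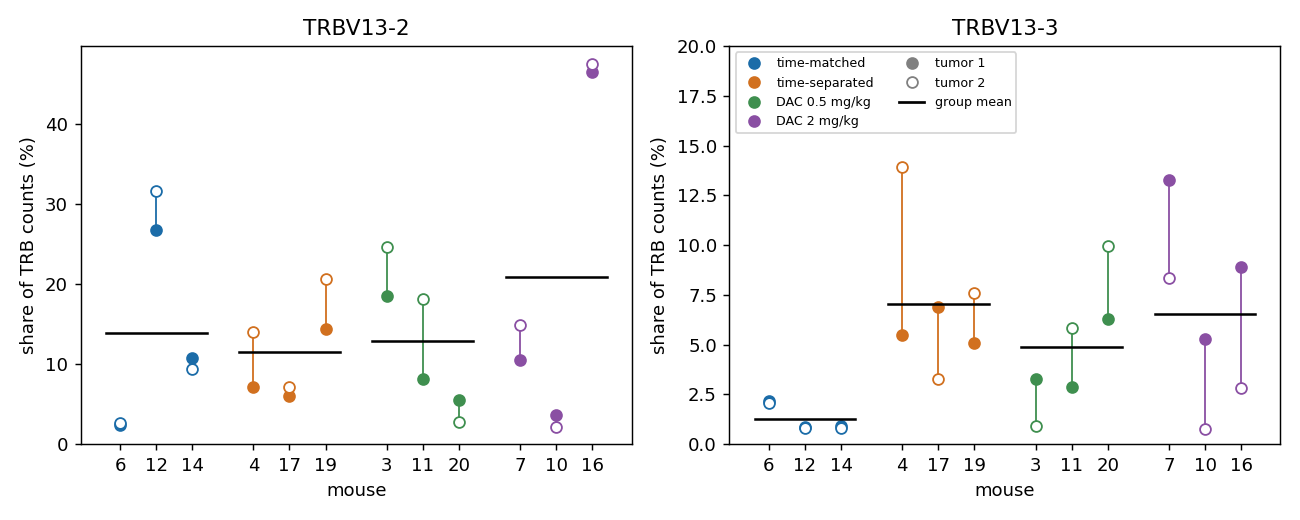
Share of TRB counts (y axis, %) of TRBV13-2 (left) and TRBV13-3 (right) in each tumor, by mouse (x axis) and group (colour). Filled points are tumor 1, open points tumor 2, thin lines join the tumors of a mouse and black lines are group means of 3 mice. The y axes differ. For TRBV13-3 the points of the time-matched mice lie between 0.802% and 2.16% and almost coincide within each mouse, and the TRBV13-2 points of mouse 16 lie at 46.5% and 47.5%.

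The groups were compared over 1 value per mouse, with p-values adjusted over the 16 V segments. The mean share of TRBV13-3 in the counts was 1.27% ± 0.739 (SD, n = 3) in the time-matched mice and 6.16% ± 2.93 (n = 9) in all time-separated mice, a difference of 4.89 points (exact permutation test, two-sided, p = 0.0227, adjusted p = 0.364, against a smallest p of 0.00455). Of the 16 segments, 0% were called in this comparison, 1 had an unadjusted p under 0.05, which was TRBV13-3, and edgeR called 12.5%, which were TRBV13-3 (2.34 higher on the log2 scale, adjusted p = 0.0467) and TRBV15. Against the untreated time-separated mice alone (7.05% ± 2.39, n = 3) the difference was 5.78 points, and all 3 mice were above the time-matched ones (exact permutation p = 0.1, the smallest that 3 against 3 allows, adjusted p = 0.457). Mice of these groups did not overlap for 18.8% of the 16 segments, TRBV13-3, TRBV29 and TRBV31. The permutation test called 0%, as it must at this size, and edgeR called 0, with 4 at an unadjusted p under 0.05. With all libraries thinned to 63291 counts the difference from the 9 mice was 4.90 points. The largest TRBV13-3 clonotype of each tumor was also taken out of the segment and the library. Tumors then held 0.705% to 1.41% in the time-matched mice and 0.361% to 5.94% in the 9 time-separated mice.

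By clonotypes the difference in TRBV13-3 was smaller. The share of clonotypes was 5.01% ± 1.22 (SD, n = 3) in the time-matched and 7.33% ± 1.88 (n = 9) in the time-separated mice (exact permutation p = 0.0864, adjusted p = 0.424), and without near copies it was 6.97% ± 1.00 and 8.17% ± 1.08 (exact permutation p = 0.123). By clonotypes, 0% of the 16 segments were called, none had an unadjusted p under 0.05 by the permutation test, and edgeR called 6.25%, which was TRBV15. For TRBV13-2 the share of counts was 14.0% ± 13.8 in the time-matched and 15.1% ± 13.4 in the 9 time-separated mice (exact permutation p = 0.9), and the share of clonotypes 12.5% ± 4.32 and 13.7% ± 4.98 (exact permutation p = 0.732).

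The value of each mouse given decitabine is the mean of an unexposed and an exposed tumor, which the labels do not tell apart. No difference between the groups given decitabine and the untreated time-separated mice passed the permutation test in either segment. By that test 0% of the 16 segments were called at either dose and 0 had an unadjusted p under 0.05, while edgeR on counts called 6.25% at 0.5 mg/kg, which was TRBV3, and 0% at 2 mg/kg, where 0 had an unadjusted p under 0.05. TRBV13-3 held 7.05% ± 2.39 of counts without the drug, 4.87% ± 3.04 at 0.5 mg/kg (exact permutation p = 0.4) and 6.56% ± 3.94 at 2 mg/kg (exact permutation p = 0.9). TRBV13-2 held 11.6% ± 5.52, 13.0% ± 8.72 and 20.9% ± 23.2 (SD, n = 3 each), with an exact permutation p of 0.8 for both doses. With 3 mice a group these tests cannot go below 0.1, and the TRBV13-2 means of the mice at 2 mg/kg were 12.7%, 2.93% and 47.0%, the last in mouse 16.

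Of the J partners of the pair, 1 was called different from those of other V segments, and the call was lost under several alternatives. TRBV13-2 clonotypes most often used TRBJ2-7 (24.5% ± 8.54, SD, n = 12 mice), TRBJ2-5 (18.3% ± 19.4) and TRBJ2-1 (12.4% ± 9.71). TRBV13-3 clonotypes most often used TRBJ2-1 (19.0% ± 17.9), TRBJ2-7 (17.4% ± 6.97) and TRBJ2-5 (14.5% ± 11.0). Each V and J pair was tested against the clonotypes of all other V segments of the same mice, with p-values adjusted over the 192 pairs of 16 V and 12 J segments. Over all V segments 1.56% of the pairs were called higher and 9.9% lower. Of the 24 pairs of TRBV13-2 and TRBV13-3, 1 was called, TRBV13-3 with TRBJ1-1, which was lower (7.00% ± 2.12 against 9.01%, lower in 10 of 12 mice, sign-flip permutation test, adjusted p = 0.0386). It was not called when any of mice 6, 7, 11, 12, 14, 16, 17, 19 or 20 was left out (adjusted p up to 0.0729), nor without near copies (8.05% against 9.13%, adjusted p = 0.229). Nor was it called by counts, with thinned libraries, at a minimum of 5 counts or with single counts kept. Without near copies the called pairs were TRBV13-2 with TRBJ1-1 (6.41% against 9.52%, adjusted p = 0.0426) and TRBV13-3 with TRBJ1-5 (1.44% against 2.19%, adjusted p = 0.0345), both lower, where 2.08% of all pairs were called higher and 9.9% lower.

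The CDR3s of TRBV13-2 carried more negative charge than those of the other segments together, as did those of TRBV13-1, TRBV16 and TRBV3. Their net charge, the lysines and arginines less the aspartates and glutamates, averaged -1.38 ± 0.294 (SD, n = 12 mice) against -0.737 for the clonotypes of all other V segments, and was lower in 12 of 12 mice (sign-flip permutation test, adjusted p = 0.00127 over 16 V segments and 6 features). TRBV13-1 averaged -1.32 ± 0.356 against -0.729 and was also lower in 12 of 12 mice (adjusted p = 0.00127). TRBV16 (-1.21 against -0.823, adjusted p = 0.00127) and TRBV3 (-0.989 against -0.825, adjusted p = 0.0342) were called lower too. A call in either direction was made for 75% of the 16 segments, so a charge unlike the rest was common among V segments. Without near copies 42.4% ± 7.41 of TRBV13-2 clonotypes started with CASGD and 13.8% ± 2.99 with CASGE. An acidic residue at the same place was also frequent in TRBV13-3 (31.0% ± 6.46 CASSD and 9.81% ± 3.21 CASSE) and in TRBV13-1 (39.2% ± 5.52 and 11.5% ± 3.75). TRBV13-3 had a net charge of -0.773 ± 0.369 against -0.834 (adjusted p = 0.776).

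Among TRBV13-2 CDR3s a group of 10 residues stood beside the usual lengths. Loops of 10 residues made up 19.8% ± 15.7 of TRBV13-2 clonotypes (SD, n = 12 mice), 13.9% ± 12.7 without near copies, and 35.6% ± 26.5 of its counts, from 0.322% to 77.4% of counts over the mice. The most common length was 14 residues by clonotypes (24.9% ± 16.8) and 10 by counts. Of TRBV13-3 clonotypes 0.822% ± 1.02 had 10 residues, and 14 was the most common length by clonotypes (36.9% ± 15.7) and by counts (43.7% ± 24.2). The mean length of TRBV13-2 clonotypes was 13.3 ± 0.845 residues against 13.8 for other segments (adjusted p = 0.143), and that of TRBV13-3 was 13.7 ± 0.224 (adjusted p = 0.965), while 68.8% of the 16 segments were called for length. The mean length of TRBV13-2 less that of TRBV13-3 was -0.41 ± 0.98 residues by clonotypes, with 6 of 12 mice on either side (sign-flip permutation p = 0.176), and -1.004 by counts (sign-flip permutation p = 0.0488).

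**Figure D2:**
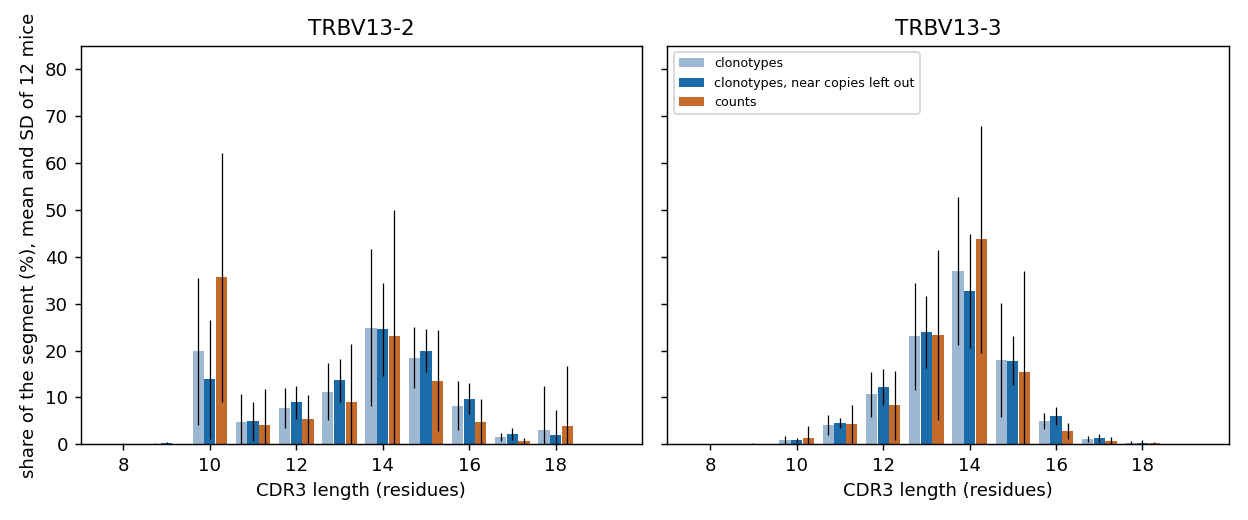
CDR3 length in residues (x axis) of TRBV13-2 (left) and TRBV13-3 (right) as a share of the segment (y axis, %), by clonotypes, by clonotypes with near copies left out and by counts. Bars are means and lines the SD of 12 mice. TRBV13-2 has a bar of 35.6% of counts at 10 residues, where TRBV13-3 has 1.27%.

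Glycines in the middle of the loop numbered 1.23 ± 0.370 for TRBV13-2 and 1.29 ± 0.158 for TRBV13-3, and neither was called (adjusted p = 0.593 and 0.825), against 31.2% of the 16 segments. TRBV13-3 clonotypes were encoded by fewer nucleotide sequences each, 1.10 ± 0.0663 against 1.23 for the other segments (lower in 12 of 12 mice, adjusted p = 0.00127, where 75% of the 16 segments were called), and by 1.03 against 1.07 without near copies (adjusted p = 0.00104).

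With counts of at least 2, both segments were more frequent among productive clonotypes than among non-productive sequences, which carry a stop mark. Most of these were in frame by length, and they are not taken here as a reference free of selection. TRBV13-2 made up 13.4% ± 4.66 of productive clonotypes and 11.0% ± 5.24 of non-productive sequences, a difference of 2.39 ± 1.17 points in 11 of 12 mice (sign-flip permutation test, adjusted p = 0.00781). TRBV13-3 made up 6.75% ± 1.98 and 5.00% ± 2.29, a difference of 1.75 ± 1.03 points in 11 of 12 mice (adjusted p = 0.00781). With single counts kept the TRBV13-2 difference was 1.22 points (adjusted p = 0.0156), while the TRBV13-3 difference was 0.801 points and was not called (adjusted p = 0.121), and at a minimum of 5 counts it was 3.37 points (adjusted p = 0.00391). A call was made for 18.8% of the 16 segments. TRBV13-1 was at 17.5% ± 5.67 and 20.1% ± 7.49 (adjusted p = 0.0781), and without near copies it was lower among productive clonotypes in 12 of 12 mice (14.1% ± 2.80 and 19.9% ± 6.03, adjusted p = 0.00391, with 25% of the 16 segments called). Of the 28943 non-productive sequences 6061 were out of frame by length, and among these alone TRBV13-2 made up 3.80% ± 2.96 and TRBV13-3 2.96% ± 3.54, each below its productive share (adjusted p = 0.00391 and 0.0156, with 31.2% of the 16 segments called). The non-productive share of TRBV13-2 was highest in mouse 16 (22.1%), where its share of counts was also highest; the part of large clones in the non-productive sequences was not tested. Productive clonotypes were counted by amino acids and non-productive ones by nucleotides. With both by nucleotides the differences were 3.10 and 1.26 points.

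**Figure D3:**
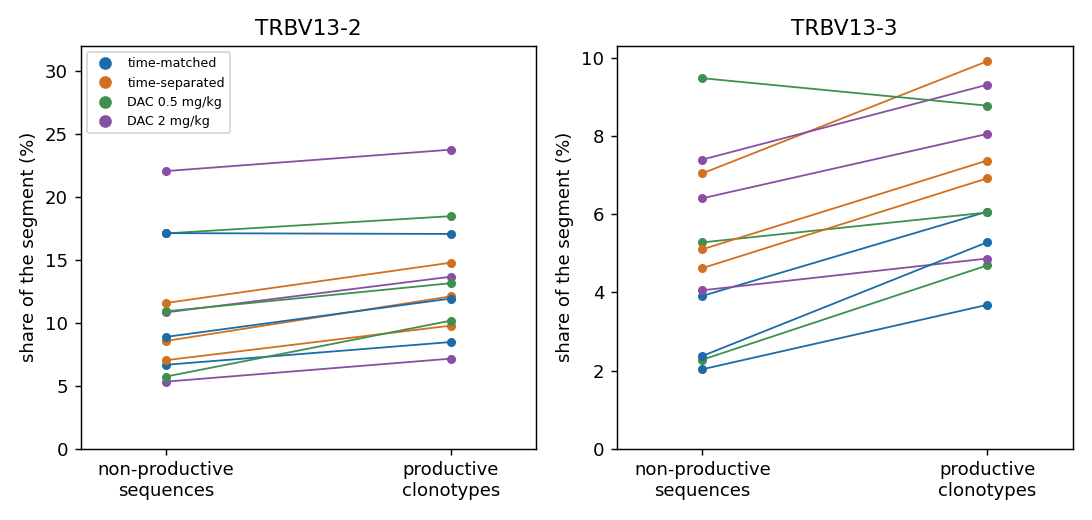
Share (y axis, %) of TRBV13-2 (left) and TRBV13-3 (right) among non-productive sequences and productive clonotypes. Each line is 1 of 12 mice, coloured by group. In 11 of 12 mice the line rises from left to right for either segment.

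The largest TRBV13-2 clones were held by both tumors of their mouse. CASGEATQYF took 30.0% and 33.1% of all TCRβ counts in the tumors of mouse 16, and ranked first in both. The TRBJ2-5 clone of 14 residues took 23.6% and 28.1% in mouse 12, a time-matched mouse, and also ranked first in both. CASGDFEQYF took 7.80% and 8.57% in mouse 19, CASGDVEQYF 4.47% and 9.69% in mouse 7, and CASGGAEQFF 3.90% and 4.71% in mouse 14. In mouse 3 a clone of 18 residues with TRBJ2-4 took 7.28% and 9.98%. With the largest clone of the segment taken out of both the segment and the library, TRBV13-2 held 23.6% and 21.5% of the remaining counts in mouse 16, and 4.20% and 4.90% in mouse 12.

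Other TRBV13-2 clones differed between the tumors of a mouse. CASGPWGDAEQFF of mouse 11 was at 1.86% and 10.1%, and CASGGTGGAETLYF of mouse 4 at 0.677% and 6.28%. In mouse 19 a clone of 16 residues with TRBJ2-5 was at 0.111% and 5.94%. The largest clone was smaller in the rest, with 2.33% and 2.91% for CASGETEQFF in mouse 17 and means under 1% in mice 6, 10 and 20. Of the 12 largest clones, 6 had a CDR3 of 10 residues, 10 used a TRBJ2 segment and 4 had no D segment listed.

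The largest TRBV13-3 clones mostly differed between the tumors of a mouse. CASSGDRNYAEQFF of mouse 19 was at 0.0705% in tumor 1 and 6.64% in tumor 2, ranks 174 and 5. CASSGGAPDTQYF of mouse 4 was at 2.02% and 8.51%, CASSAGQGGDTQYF of mouse 20 at 1.74% and 7.14%, and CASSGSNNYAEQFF of mouse 16 at 7.46% and 2.08%. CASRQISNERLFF of mouse 10 was at 2.49% and 0.0260%, and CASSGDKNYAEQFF of mouse 11 at 0.609% and 2.84%. A clone of 15 residues with TRBJ1-6 in mouse 7 was the highest on average, at 9.26% and 6.82%, and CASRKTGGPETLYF of mouse 17 was at 3.17% and 1.72%. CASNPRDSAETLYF of mouse 3 was at 0.563% and at 0 of 63291 counts, which allows a share of up to 0.00474%.

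In the time-matched mice no TRBV13-3 clone was large. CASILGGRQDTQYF of mouse 6 was the highest, at 0.759% and 0.836%, followed by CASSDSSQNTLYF of mouse 14 (0.0563% and 0.0977%) and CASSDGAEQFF of mouse 12 (0.0603% and 0.0679%). A TRBV13-3 clonotype of at least 1% of counts was found in 0 of 6 time-matched tumors and in 13 of 18 time-separated tumors, and one of TRBV13-2 in 4 of 6 and 14 of 18. Such a clonotype was in 0 of 6 time-matched tumors for 43.8% of the 16 segments, TRBV13-3 having the highest mean share of counts among them.

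The gap between the tumors of a mouse, the absolute difference in a segment's share, was examined after the data were seen. For TRBV13-3 it was 0.0649 ± 0.0396 points of counts in the time-matched mice (SD, n = 3, from 0.0225 to 0.101) and 4.34 ± 1.96 points in the 9 time-separated mice (from 2.36 to 8.46). The ranges did not overlap, which held for 6.25% of the 16 segments, TRBV13-3 alone (exact permutation p = 0.00909, adjusted p = 0.145 over the 16 segments, of which 0% were called and 1, TRBV13-3, had an unadjusted p under 0.05). The share itself was also lower in the time-matched mice, which bounds the gap. For TRBV13-2 the gap was 2.18 ± 2.37 and 4.47 ± 3.12 points (exact permutation p = 0.286).

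Single clones were followed between tumors as a description. Of TRBV13-2 clonotypes at 0.1% or more in a tumor, 5 of 17 differed by over 2-fold between the tumors of time-matched mice and 77 of 99 in the time-separated mice. These were 31 of 39 without the drug, 29 of 34 at 0.5 mg/kg and 17 of 26 at 2 mg/kg. For TRBV13-3 they were 0 of 1 in the time-matched mice, and 21 of 23, 20 of 20 and 10 of 13 in the time-separated groups. For all other V segments they were 22 of 113 (19.5%) in the time-matched mice and 617 of 722 (85.5%) in the time-separated mice, beside 77.8% for TRBV13-2 and 91.1% for TRBV13-3. Near copies were kept here. Among the 17 time-matched TRBV13-2 clonotypes, several of mouse 12 were 1 residue away from its largest clone. The widest TRBV13-2 difference was that of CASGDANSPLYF in time-matched mouse 14, at 0.941% and 0.000819%. Clonotypes of a mouse share its libraries and are not replicates, so these numbers of clonotypes carry no test.

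**Figure D4:**
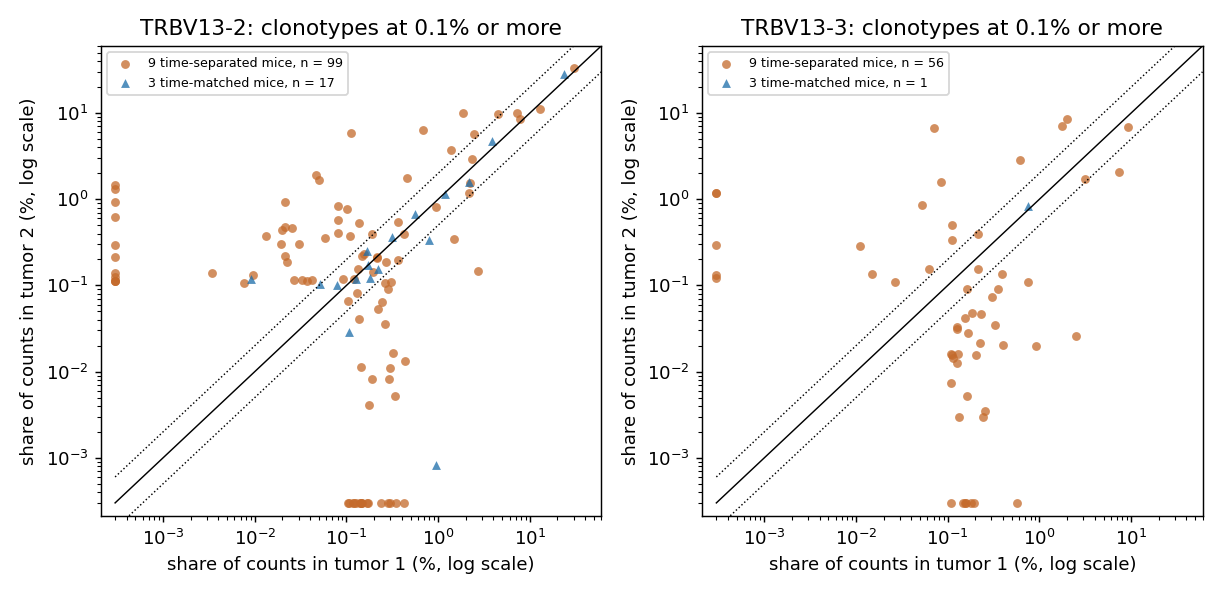
Share of counts in tumor 1 (x axis, %, log scale) against tumor 2 (y axis, %, log scale) for TRBV13-2 (left) and TRBV13-3 (right) clonotypes at 0.1% or more in either tumor of a mouse. Triangles are from time-matched and circles from time-separated mice, the solid line marks equal shares, the dotted lines a 2-fold difference, and points on the left or lower edge were not found in that tumor. Most triangles lie between the dotted lines and most circles outside them.

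The overlap of the pair's clonotypes between tumors was measured with the Morisita-Horn index, which is 1 for identical and 0 for disjoint frequencies, after thinning to 63291 counts. Mouse 6 had 0.952, mouse 12 had 1.00 and mouse 14 had 0.942, which are the time-matched mice (0.965 ± 0.0310, SD, n = 3). Of the time-separated mice without drug, mouse 4 had 0.654, mouse 17 had 0.880 and mouse 19 had 0.683 (exact permutation p = 0.1 against the time-matched mice, the smallest possible). Mice 3, 11 and 20 at 0.5 mg/kg had 0.893, 0.634 and 0.465, and mice 7, 10 and 16 at 2 mg/kg had 0.853, 0.152 and 0.973. The mean of these 9 mice was 0.687 ± 0.257 (exact permutation p = 0.0773), and mouse 16 lay within the time-matched range. Neither dose differed from the untreated time-separated mice by the test (exact permutation p = 0.6 and 0.9).

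The index also differed between the segments within a mouse. In mouse 19 TRBV13-2 had 0.803 and TRBV13-3 0.0317, whose largest clone was the one at 0.0705% and 6.64%. In mouse 4 TRBV13-2 had 0.400 and TRBV13-3 0.855, and in mouse 10 both were low, with 0.291 and 0.149. Mouse 20 had 0.206 and 0.628, and mouse 3 had 0.913 and 0.396.

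The private share, defined as the percentage of the pair's counts belonging to clonotypes that the other tumor of the mouse lacked, was 15.3% ± 13.2 in the time-matched and 23.99% ± 12.3 in the 9 time-separated mice (exact permutation p = 0.314). Compared after the data were seen with all other V segments of the same mice, the pair's private share was higher, 21.8% ± 12.6 against 15.0% ± 9.91 (n = 12 mice, a difference of 6.87 points, sign-flip permutation test, p = 0.0479). Leaving out any of mice 3, 4, 6, 10, 11, 14, 17 or 20 (p up to 0.0957), or keeping single counts (p = 0.0513, both by the same permutation test), moved it past 0.05. The overlap index of the pair was 0.757 ± 0.253 and that of all other V segments 0.752 ± 0.211 (sign-flip permutation p = 0.96).

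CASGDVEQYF was the member clonotype with a sizeable share in the most mice. It was found in 11 of 12 mice, all but mouse 10, with the same main nucleotide sequence in all 11, also without near copies. After mouse 7, where it averaged 7.08%, it averaged 1.89% in mouse 14, 1.88% in mouse 11 and 0.880% in mouse 4, and its lowest mean was 0.0642% in mouse 6. Its median over the other 10 mice was 0.192%. In tumors 1 and 2 of the time-matched mice it was at 2.19% and 1.59% (mouse 14), 0.0812% and 0.0784% (mouse 12), and 0.00921% and 0.119% (mouse 6). Among the time-separated mice it was at 0.946% and 0.814% in mouse 4, and at 0.0215% and 0.471% in mouse 3. Its junction holds 3 bases beyond the V and J stretches and no D segment was listed. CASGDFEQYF, 1 base away, was found in 9 mice, and in 2 without near copies.

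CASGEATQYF and the TRBJ2-5 clone of 14 residues, the dominant clones of mice 16 and 12, were also found in 11 mice each with the same nucleotide sequence, but at far lower levels. Their medians over the other mice were 0.00144% and 0.000865% of counts, against 31.6% and 25.9% in the mouse where they dominated. In mouse 12 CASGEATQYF had 6 and 11 counts, and in mouse 16 the dominant clone of mouse 12 had 5 and 3 counts. The source of these low counts was not tested.

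TRBV13-3 clonotypes were shared at low levels. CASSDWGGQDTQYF was found in 9 mice and averaged at most 0.115%. The main nucleotide sequence of its top mouse was the main one in that mouse only, while mice 3, 4 and 14 had another main sequence in common. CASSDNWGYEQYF was found in 8 mice, 4 of them with the same main nucleotide sequence (highest mean 0.123%). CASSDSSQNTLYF was found in 6, 5 of them with the same main one (highest mean 0.0770%). Of all distinct clonotypes, 5.22% of TRBV13-2 and 3.04% of TRBV13-3 were found in at least 2 mice, beside 5.04% of TRBV13-1. Without near copies these were 5.65%, 3.37% and 4.42%.

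**Figure D5:**
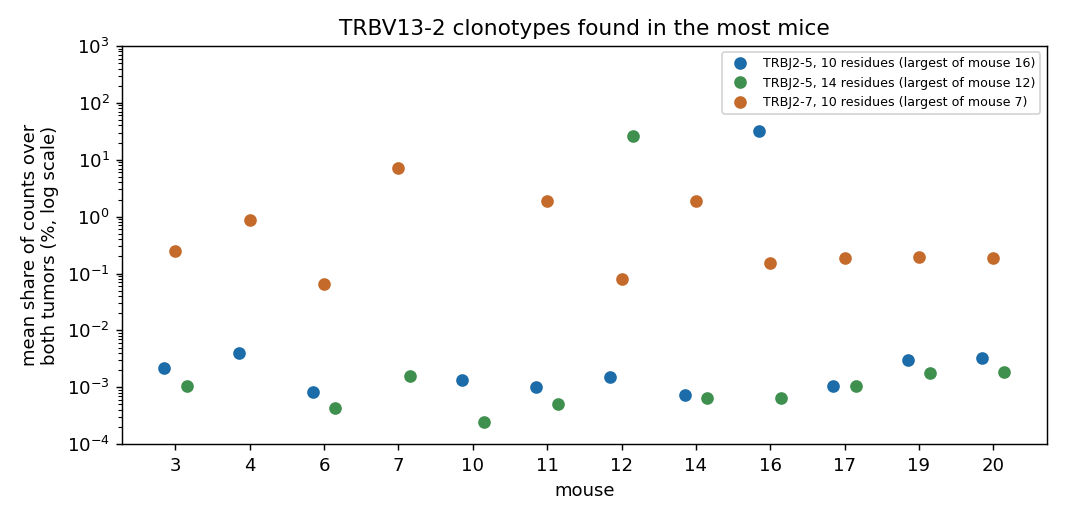
Mean share of counts over both tumors (y axis, %, log scale) in each mouse (x axis) for the 3 TRBV13-2 clonotypes found in the most mice, named by J segment, CDR3 length and the mouse where they are largest. A mouse without a point held no sequence of the clonotype with at least 2 counts. The TRBJ2-7 clonotype lies between 0.0642% and 7.08% in 11 mice, and the TRBJ2-5 clonotypes lie at or below 0.00407% outside the mouse where they are largest.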

How the data were processed

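TCRβ repertoires were sequenced from RNA of 24 whole tumors with a mouse TCR kit that uses molecular identifiers. The deposited counts, 1 per receptor sequence, are raw values that the authors obtained from Cogent NGS Immune Profiler 2.0, with no scaling applied. That step included an analysis by molecular identifiers. The authors call the deposited counts reads; how the identifier step enters them, and the genome build, are not given in the sources used here. The TCRα tables were not used.

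Sequences with a stop or out-of-frame mark or fewer than 2 counts were left out, and clonotypes were joined by CDR3 amino acids, V and J. Samples were grouped by their labels, and the mouse was the replicate. Whether the 3 mice of a group shared a cage or a day is not stated. Group means were compared with exact permutation tests, paired values with exact sign-flip tests over 12 mice, both two-sided, with Benjamini-Hochberg adjustment over all 16 V segments (192 V and J pairs, or all features) at 0.05. edgeR's quasi-likelihood test on sums per mouse was an alternative. Overlap used libraries thinned to 63291 counts (mean of 20 draws, seed 20). A share of 0 allows up to 3 counts of the library. Other alternatives were single counts, a minimum of 5, nucleotide clonotypes, thinning, pooled tumors, weighting by counts, and leaving out mice or the largest clones. Near copies and out-of-frame sequences were added after the data were seen. The clonotypes named were each mouse's largest per segment, the 3 in most mice and the 3 that changed most; members, lists and rules were chosen with earlier results of these data known. The computations were tested on simulated data. Python 3.11.15, numpy 2.4.6, pandas 2.3.3, scipy 1.17.1, matplotlib 3.10.9, R 4.3.3 and edgeR 4.0.16 were used.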

Additional observations from a re-analysis of the deposited data

Results flagged for a closer look

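The share of TRBV13-2 in the counts of mouse 16 (2 mg/kg of decitabine), 47.0% over its tumors, stood apart from the other 8 time-separated mice: its gap to the nearest mouse was 0.577 of the whole range. It was the only value flagged among 22 groups of values examined. Most of these groups held the 2 tumors of each mouse, which are not independent and can hide each other. No rate of flags by chance is therefore given. Without mouse 16 the difference in TRBV13-2 between all 9 time-separated mice and the time-matched mice changed from 1.18 to -2.80 points.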

How the results depend on the processing

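Of 357 values recomputed under an alternative other than leaving out mice, 336 kept their direction and side of the threshold or stayed within the limit set for counts. The TRBV13-2 difference in counts between the 3 time-separated mice without drug and the time-matched mice turned from -2.38 to 5.46 without each mouse's largest clonotype, and that in clonotypes from -0.268 to 0.530 without near copies. The TRBV13-3 difference between 2 mg/kg and no drug turned to 1.85 without the largest clonotypes, 0.148 with tumors pooled and 0.03 (0.0292, log2) by edgeR for counts, and to 0.105 with single counts for clonotypes. TRBV13-3 in all time-separated mice against time-matched mice passed only by edgeR (log2 2.34). The overlap difference at 2 mg/kg turned to 0.235 without the largest member clonotypes. With single counts the private share stood 7.09 points above other segments, no longer past 0.05, and the productive excess of TRBV13-3 was 0.801, also not called. By counts, the length of TRBV13-2 loops less that of TRBV13-3 was a called -1.004 residues. The difference of TRBV13-3 from other segments turned to 0.421 residues (0.0768 by nucleotide clonotypes), -3.21 points of CASS starts and 0.113 glycines. By counts none of these was called (sign-flip permutation test, adjusted p from 0.2 to 0.772). The charge difference of TRBV13-3 turned to -0.0800 without near copies. The lower J partners numbered 1 for TRBV13-2 without near copies, and 0 for TRBV13-3 by counts, when thinned, at a minimum of 5 and with single counts. The cause of these changes was not tested.

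Leaving out 1 mouse at a time gave these ranges. TRBV13-2 in counts went from -8.10 to 5.26 for time-separated mice without drug less time-matched mice, -2.91 to 5.81 at 0.5 mg/kg, -3.75 to 18.3 at 2 mg/kg and -4.54 to 8.83 for all 9 mice. In clonotypes it went from -2.28 to 2.02, -0.559 to 3.59, -1.81 to 6.49 and -0.825 to 3.47. TRBV13-3 at 2 mg/kg went from -2.61 to 1.28 in counts and -1.61 to 0.616 in clonotypes. Overlap went from -0.190 to 0.0244 at 0.5 mg/kg, -0.237 to 0.174 at 2 mg/kg and -0.0399 to 0.0678 against other segments. The private share went from -6.70 to 1.401 at 0.5 mg/kg and 4.87 to 8.02 against other segments. Called J partners went from 0 to 1 for TRBV13-2 (higher and lower) and for TRBV13-3 (lower). TRBV13-3 length went from -0.0749 to 0.0532, charge from -0.0387 to 0.0972 and glycines from -0.0506 to 0.0121. TRBV13-2 differences against time-matched mice changed direction without mouse 6, 12, 14, 16 or 17, those at 0.5 mg/kg without mouse 3 or 17, and those at 2 mg/kg without mouse 16. TRBV13-3 at 2 mg/kg did so without mouse 4 or 10.

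Leaving out out-of-frame rows gave no further value, since none remained after the stop filter. No paired analysis was possible because no replicate numbers are shared between groups; this concerns comparisons between groups, and tumors and segments were compared within mice. With 3 mice a group, a permutation test cannot reach 0.05, and the share that a count of 0 allows ran from 0.000338% to 0.00474% over the libraries.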
